A study of Mus musculus with 4 samples.

Results

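Blood vessel endothelial markers were followed in mouse lens RNA as a set of 10 genes: Flt1, Kdr, Tek, Tie1, Pecam1, Cdh5, Cldn5, Esam, Vwf and Egfl7. The set was chosen by name from genes known to be expressed in the cells that line blood vessels, and all 10 were found among the 14924 genes of the expression table. RNA-seq had been carried out on lenses of 1-month-old mice kept on a C57BL/6J background, with 2 libraries of mice that lack S100A4 throughout the body (S100A4-/-) and 2 libraries of their wild-type littermates (WT). Each library was made from a pool of 6 to 12 whole lenses, so a value is an average over several eyes and over every cell type left on the dissected lens. The S100A4-/- libraries held 81602367 and 74108017 reads, and the WT libraries 70253985 and 68038158. Values are gene reads divided by 1 size factor per library, and they are called normalized values here.

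The endothelium is the single cell layer on the inner face of every blood vessel. Its cells receive growth signals through 2 families of receptor tyrosine kinases, the vascular endothelial growth factor (VEGF) receptors and the Tie receptors, and they are held together by vascular endothelial cadherin, claudin-5 and immunoglobulin-type adhesion molecules. The adult lens has no blood vessels. In the embryo it is wrapped by the tunica vasculosa lentis, a capillary net fed by the hyaloid artery, which regresses around and after birth in the mouse. The retina, iris and ciliary body next to the lens keep a rich blood supply.

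S100a4, the gene that the mutant mice lack, was read at normalized values of 14.6 and 18.2 in mutant lenses, against 14420 and 14385 in WT (log2 fold change -9.70, SE 0.10, adjusted p = 6.42e-41). The genotype labels of all 4 libraries therefore fitted the values of the targeted gene. For the tissue label 16 lens genes were looked at, among them the crystallins Cryaa, Cryab, Cryba1 and Crybb2. Cryaa was the most abundant of them by its mean over the 4 libraries. Its normalized values were 1.19e+07 and 1.33e+07 in mutant lenses and 1.31e+07 and 1.33e+07 in WT. The mean value of all genes tested had a median of 314. None of the 16 passed the threshold (median log2 fold change -0.06, range -0.16 to 0.07), which compares the genotypes and does not itself check the tissue.

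The endothelial markers were a small part of this RNA. The 10 genes together had 1001 and 837 reads in S100A4-/- replicates 1 and 2 against 513 and 585 in the WT replicates, which is 12.3 and 11.3 against 7.30 and 8.60 of each 1000000 reads. On the normalized scale 1 read was worth 0.856 and 1.01 in the mutant replicates, against 1.04 and 1.09 for WT. In RNA from whole tissue, fewer cells of a type and less RNA per cell cannot be told apart, and this holds for all values given here.

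The 250 bases before the start of transcription are shown for 3 of the receptor genes, because Flt1 and Kdr passed the threshold while Tek, a receptor of the same cells, did not. The sequences are those of RefSeq on GRCm38.p6, where 6 of the 10 markers had an entry, and each is written 5′ to 3′ on the strand of its gene. Capitals mark the core GGAAG, read on either strand (CTTCC on the other), which is the centre of the site bound by ETS factors, a family that acts in all endothelial cells.
Flt1: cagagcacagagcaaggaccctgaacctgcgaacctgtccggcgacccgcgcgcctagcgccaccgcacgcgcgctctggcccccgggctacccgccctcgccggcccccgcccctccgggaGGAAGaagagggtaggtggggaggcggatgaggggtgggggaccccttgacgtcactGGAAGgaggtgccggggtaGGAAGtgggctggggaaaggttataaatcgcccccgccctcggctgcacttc
Kdr: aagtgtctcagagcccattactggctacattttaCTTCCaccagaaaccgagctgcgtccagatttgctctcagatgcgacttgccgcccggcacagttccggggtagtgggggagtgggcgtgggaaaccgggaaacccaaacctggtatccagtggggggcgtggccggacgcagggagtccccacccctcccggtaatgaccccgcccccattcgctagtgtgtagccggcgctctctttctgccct
Tek: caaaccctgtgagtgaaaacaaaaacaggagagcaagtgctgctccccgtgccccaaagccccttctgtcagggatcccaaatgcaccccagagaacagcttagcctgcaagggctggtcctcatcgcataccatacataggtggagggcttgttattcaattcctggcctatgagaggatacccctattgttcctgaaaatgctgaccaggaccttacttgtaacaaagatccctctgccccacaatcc
The Flt1 window lies at chr5:147726012-147726261 on the minus strand, the Kdr window at chr5:75978456-75978705 on the minus strand and the Tek window at chr4:94739039-94739288 on the plus strand. GGAAG occurred 3 times before Flt1, 1 time before Kdr and 0 times before Tek. Among the markers whose windows are not shown and which did not pass, it occurred 6 times before Tie1, the most of any window of the set, 4, 2 and 0 times before the 3 starts of Egfl7 and 0 times before Cldn5, so the counts did not follow the calls. In all, 64.1% of 32851 windows of this length held it at least once. The GC box GGGCGG, also searched on both strands, occurred 3 times before Flt1, 2 times before Kdr and 0 times before Tek, and of the markers that did not pass it occurred 4 times before the third start of Egfl7, 1 time before Cldn5 and 0 times before Tie1, so it did not follow the calls either. In all, 32.7% of windows held it. TATAAA occurred 1 time before Flt1 and in no other window of the set, and 12.4% of all windows held it. The OTX and CRX site TAATCC and the hypoxia response core ACGTG were also searched. They occurred in no window of the set, while 6.25% and 16.6% of all windows held them. Neither GGAAG nor TATAAA is contained in the GC box, although a GC box followed by AAG would end in GGAAG. These are matches of letters only. All positions of genes and windows are on GRCm38.

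S100A4-/- lenses had more RNA of both VEGF receptors in the set, Flt1 and Kdr, while the other 8 markers did not pass the threshold, which asks for a change of 2-fold or more with an adjusted p no higher than 0.05. Flt1 was 3.61 times and Kdr 7.03 times its WT mean. The log2 fold changes of the 8 markers that did not pass ran from -0.38 (Vwf) through -0.24 (Tek), 0.09 (Egfl7), 0.15 (Pecam1), 0.66 (Cdh5), 0.78 (Cldn5) and 1.21 (Esam) to 2.11 (Tie1). Thus 2 of 10 markers rose and 0 fell, where 3.65% of the 14780 genes tested rose and 0.0744% fell. The count tests edgeR and DESeq2, run on the recovered reads, also called Flt1 and Kdr and no other marker, where edgeR called 3.74% of all genes higher and 0.0744% lower and DESeq2 2.85% and 0.0406%. Of the 10 markers 7 had a mean value under 50 over the 4 libraries, and 1 of these, Kdr, rose, where 7.5% of all genes of such low abundance rose. Flt1, Vwf and Egfl7 were above that mean, and of these Flt1 rose, where 2.48% of all genes above it rose. The median log2 fold change was 0.72 over the 10 markers and -0.005 over all genes tested. It was 0.42 over the 10 markers under quantile normalization and 0.092 over the 3 markers with a mean value of at least 50, so it rested on the low markers, 2 of which, Kdr and Esam, were tested only through the S100A4-/- libraries. Both S100A4-/- libraries lay above both WT libraries for 5 markers and below both for 2, and the groups overlapped for 3. Over all genes tested, 23.7% had both S100A4-/- libraries above and 23.2% had both below. All 10 markers passed the filter on low values, but Kdr and Esam reached the value of 10 in the S100A4-/- libraries alone, so these 2 genes would not have been tested had they been as low there as in WT.

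**Figure D1:**
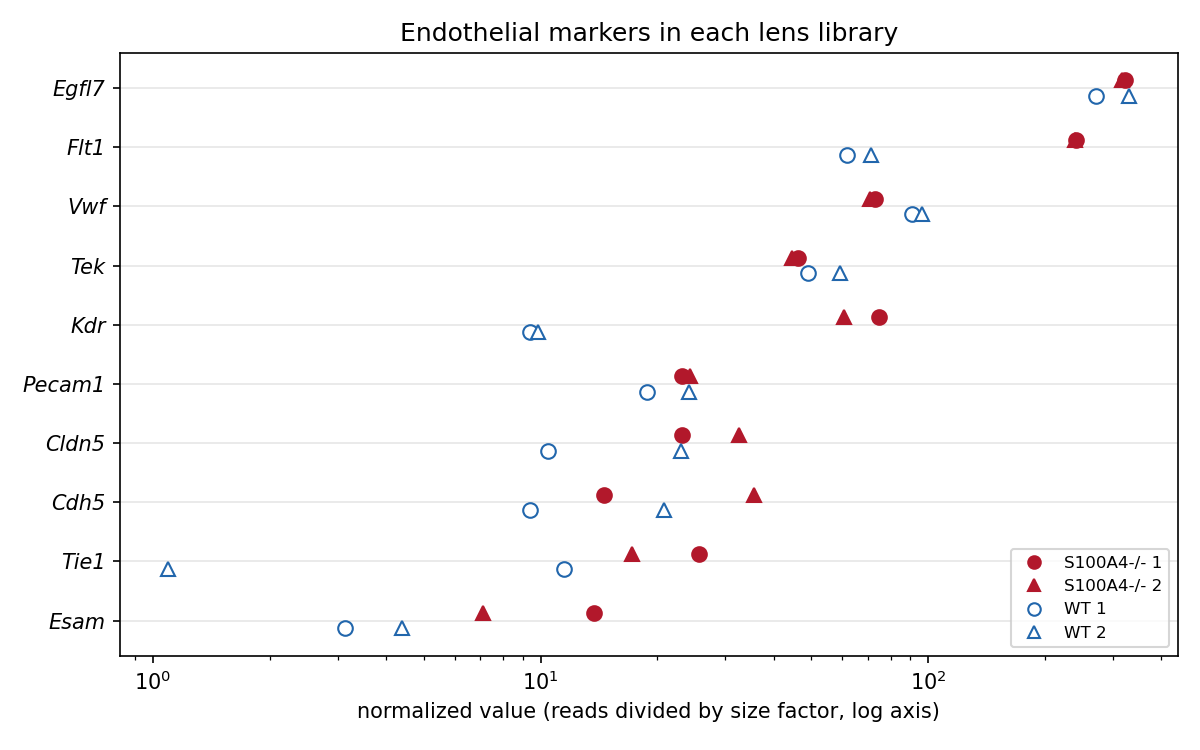
Normalized value of each of the 10 endothelial markers in each library, on a log axis, with S100A4-/- libraries as filled red symbols, WT libraries as open blue symbols, circles for replicate 1 and triangles for replicate 2. The red and blue symbols stand well apart for Kdr and Flt1, Vwf and Tek are lower in red, and the colours mix for Egfl7, Pecam1 and Cdh5.

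Among the VEGF receptors, Flt1 (VEGF receptor 1, chr5:147561604-147726011, minus strand) binds VEGF-A, VEGF-B and placental growth factor, and its soluble form traps VEGF-A outside the cell. It stood at normalized values of 240.6 and 239.2 in S100A4-/- lenses, against 61.6 and 71.2 in WT. The 2 mutant libraries were nearly equal and both stood far above the WT libraries, without overlap. The log2 fold change was 1.84 (SE 0.18, 95% interval 1.48 to 2.21, adjusted p = 4.71e-10). A gene count does not separate the membrane-bound form of Flt1 from the soluble one.

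Kdr (VEGF receptor 2, chr5:75932827-75978458, minus strand) is the main signalling receptor for VEGF-A on endothelial cells and is also made by some neural cells of the retina. It stood at 74.5 and 60.8 in S100A4-/- lenses, against 9.40 and 9.85 in WT, where each value stands for 9 reads. Both mutant libraries were well above both WT libraries. The log2 fold change was 2.68 (SE 0.39, 95% interval 1.88 to 3.49, adjusted p = 3.90e-06), the highest of the 10 markers. Without S100A4-/- replicate 1 the log2 fold change of Kdr was 2.54, with an adjusted p of 0.0566, so the call for Kdr needed that library, whereas Flt1 passed whichever library was left out.

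Of the Tie receptors, Tek (also called Tie2, chr4:94739289-94874976, plus strand) is the receptor for the angiopoietins, which settle or loosen the vessel wall. Its normalized values were 46.2 and 44.6 in mutant lenses, against 49.1 and 59.1 in WT, so both mutant libraries were slightly below both WT libraries. The log2 fold change was -0.24 (SE 0.29, 95% interval -0.82 to 0.34, adjusted p = 0.738), and the interval ends below a 2-fold rise.

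Tie1 (chr4:118471191-118490061, minus strand) has no ligand of its own with a settled role and modulates signalling by Tek. Its normalized values were 25.7 and 17.2 in mutant lenses, against 11.5 and 1.09 in WT. Both mutant libraries were above both WT libraries, but the WT libraries were themselves far apart, with 11 reads in replicate 1 and 1 read in replicate 2. The log2 fold change was 2.11 (SE 0.71, 95% interval 0.67 to 3.55) and its adjusted p of 0.0688 missed the threshold. In a limma fit with a replicate block Tie1 passed (adjusted p = 0.0239), although the labels do not say that replicate numbers pair the samples. The size of this value depended on which WT library was kept, since the log2 fold change of Tie1 was 0.82 without WT replicate 2 and 3.40 without WT replicate 1.

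The junction and adhesion molecules did not pass the threshold. Pecam1 (CD31, chr11:106654217-106750628, minus strand), an immunoglobulin-type molecule at the contacts between endothelial cells that is also carried by platelets and leukocytes, had normalized values of 23.1 and 24.3 in S100A4-/- and 18.8 and 24.1 in WT. The groups overlapped, and the log2 fold change was 0.15 (SE 0.42, 95% interval -0.71 to 1.01, adjusted p = 0.906). Cdh5 (VE-cadherin, chr8:104101625-104144511, plus strand) is the cadherin of the endothelial adherens junction. Cdh5 had values of 14.6 and 35.5 in S100A4-/- and 9.40 and 20.8 in WT. Here the 2 libraries of each genotype differed from each other more than the genotypes did and the groups overlapped (log2 fold change 0.66, SE 0.51, 95% interval -0.37 to 1.70, adjusted p = 0.548).

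Cldn5 (claudin-5, chr16:18776847-18778262, plus strand) seals the tight junctions of the blood-brain and blood-retina barriers. Cldn5 had normalized values of 23.1 and 32.4 in mutant lenses, against 10.4 and 23.0 in WT, and the lower mutant library and the higher WT library were nearly level. Its log2 fold change was 0.78 (SE 0.46, 95% interval -0.16 to 1.71, adjusted p = 0.401). Esam (endothelial cell adhesion molecule, chr9:37528078-37538319, plus strand) had the fewest reads of the set over the 4 libraries, with values of 13.7 and 7.09 in mutant lenses, against 3.13 and 4.38 in WT, the latter from 3 and 4 reads. Both mutant libraries were higher, but the interval of the log2 fold change was wide (1.21, SE 0.80, 95% interval -0.40 to 2.82, adjusted p = 0.461). It spanned both a fall and a rise, so no difference in Esam was called.

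Neither of the secreted products passed. Vwf (von Willebrand factor, chr6:125546774-125686679, plus strand) is stored in endothelial granules and platelets and tethers platelets to a wounded vessel. Its normalized values were 72.8 and 70.9 in S100A4-/- and 90.8 and 96.4 in WT. Both mutant libraries were below both WT libraries by more than the replicates differed, yet the change was small and missed the threshold (log2 fold change -0.38, SE 0.22, 95% interval -0.83 to 0.07, adjusted p = 0.397). Egfl7 (chr2:26580014-26593120, plus strand), a secreted matrix protein of growing vessels, was the most abundant of the set at 322.8 and 316.2 in S100A4-/- and 271.5 and 330.7 in WT. Its groups overlapped and its log2 fold change was 0.09 (SE 0.12, 95% interval -0.15 to 0.34, adjusted p = 0.767). For 3 markers, Tek, Vwf and Egfl7, the whole interval lay below a 2-fold rise.

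**Figure D2:**
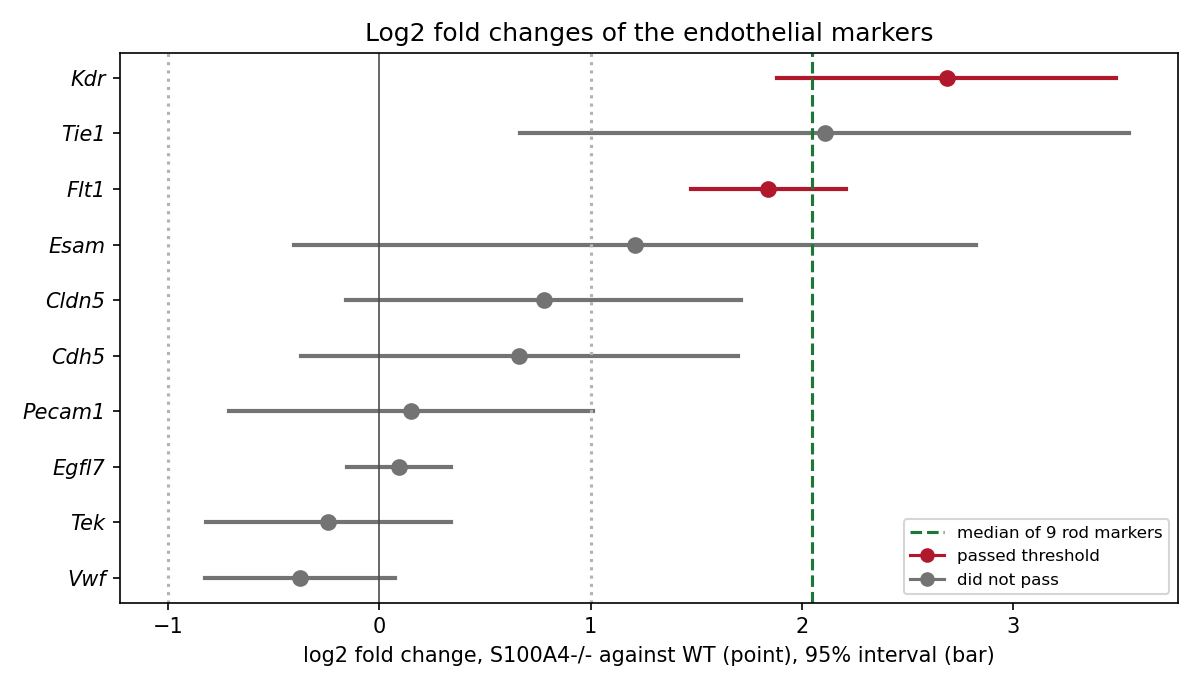
Log2 fold change of each endothelial marker in S100A4-/- against WT lenses (point) with its 95% interval (bar), red where the threshold was passed. Dotted lines stand at a 2-fold change in either direction and the dashed green line at 2.05, the median of 9 rod photoreceptor markers. The study had already listed all 9 as upregulated in these libraries. The intervals of 6 markers end below that line, and those of 4 below 1.46, the lowest rod marker.

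The summed level of the set was higher in S100A4-/- lenses, and Flt1 and Kdr, the 2 markers that passed, took a larger share of it. The 10 normalized values summed to 857 and 848 in S100A4-/- lenses, against 536 and 641 in WT, a ratio of means of 1.45. Without Flt1 and Kdr the other 8 summed to 542 and 548 against 465 and 559, a ratio of 1.06, with WT replicate 2 above both mutant libraries. Flt1 and Kdr were set apart because they passed, so a lower ratio for the rest was built in. Egfl7 held much of that rest, and without Egfl7 too the sums were 219 and 232 against 193 and 229. Flt1 made up 28.1% and 28.2% of the sum in S100A4-/- and 11.5% and 11.1% in WT, and Kdr 8.69% and 7.17% against 1.75% and 1.54%. The share of Egfl7 was 37.7% and 37.3% in S100A4-/- and 50.7% and 51.6% in WT. For each read on Pecam1 there were 10.4 and 9.83 reads on Flt1 in S100A4-/- lenses, against 3.28 and 2.95 in WT. For each read on Vwf there were 3.31 and 3.37 reads on Flt1 in S100A4-/- and 0.678 and 0.739 in WT. Such ratios within a library do not depend on the size factor. Of the 8 ratios of Flt1 to a marker that did not pass, 6 were higher in both mutant libraries than in both WT libraries. Flt1 had passed and these 8 had not, so higher ratios largely restate the calls and are no separate test. For Cdh5 the gap was small (16.5 and 6.74 against 6.56 and 3.42), and the ratios to the markers with the fewest reads overlapped, at 17.6 and 33.7 against 19.7 and 16.3 for Esam and at 9.37 and 13.9 against 5.36 and 65 for Tie1. With 2 libraries a group, an exact two-sided permutation test of such a ratio cannot go below p = 0.333, so no p-value is given for them.

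**Figure D3:**
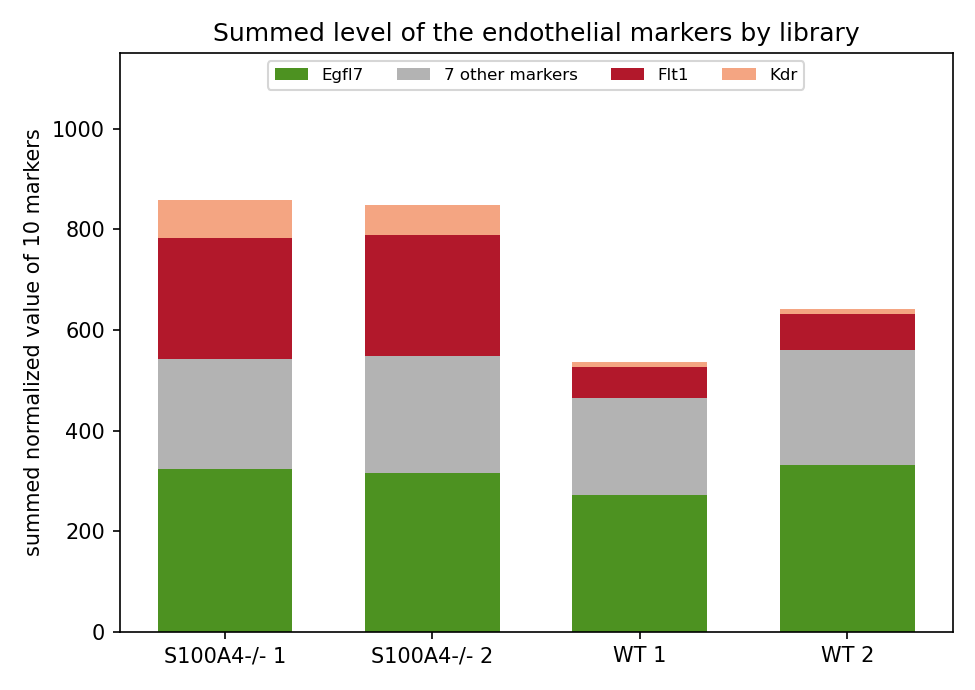
Summed normalized value of the 10 endothelial markers in each library, stacked by gene, with Egfl7 in green, 7 other markers in grey, Flt1 in red and Kdr in orange. The S100A4-/- bars reach 857 and 848 and the WT bars 536 and 641. The green and grey parts together, the markers that did not pass, reach 542 and 548 against 465 and 559.

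Levels can be set against each other only per length, as the normalized value per 1000 bases of exon. Elsewhere, most abundant means the highest mean normalized value over the 4 libraries, which is not divided by length. On this scale Egfl7 stood above every other marker in WT lenses, at 84.1 ± 11.7 (SD, n = 2), and Cldn5 followed at 11.8 ± 6.27 and Tek at 11.5 ± 1.51. Below them in WT came Vwf at 5.83 ± 0.243, Flt1 at 4.92 ± 0.501, Cdh5 at 3.59 ± 1.92 and Pecam1 at 3.44 ± 0.601. Esam at 1.31 ± 0.308, Tie1 at 1.28 ± 1.49 and Kdr at 1.07 ± 0.0358 were at the bottom of the WT order. Neighbours in this order were counted as separate where their means differed by more than the sum of their SDs, which held for 4 neighbouring pairs of 9 in WT. The pairs that were not separate in WT were Cldn5 and Tek, Flt1 and Cdh5, Cdh5 and Pecam1, Esam and Tie1, and Tie1 and Kdr.

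In S100A4-/- lenses the per-length order began with Egfl7 at 89.2 ± 1.31, Cldn5 at 19.6 ± 4.65 and Flt1 at 17.8 ± 0.0760, followed by Tek at 9.64 ± 0.248 and Kdr at 7.49 ± 1.07. Flt1 had moved above Tek and Vwf, and Kdr had moved from the last place to the fifth. The other 5 markers lay between 3.63 (Esam) and 5.95 (Cdh5) per 1000 bases, and none of their neighbouring pairs was separate. In all, 3 neighbouring pairs were separate in S100A4-/-, namely Egfl7 and Cldn5, Flt1 and Tek, and Tek and Kdr.

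Of 40 further endothelial genes listed beside the markers, 24 were found in the table and 22 passed the filter on low values. There were 5 that rose and 0 that fell, where 3.65% of all genes tested and 7.5% of those with a mean value under 50 rose. The median log2 fold change of the list was 0.98, and the 17 that did not pass had log2 fold changes from -0.03 to 2.44, the highest of them Calcrl, named after its values were seen. Both S100A4-/- libraries lay above both WT libraries for 16 of the 22 and below both for 0, and the groups overlapped for 6, against the shares of 23.7% above and 23.2% below over all genes. Of the 22 genes 5 reached the filter value in the S100A4-/- libraries alone, Ramp2 among them, so these could have been tested only if they were higher there. Clec14a, a C-type lectin of angiogenic endothelium, had values of 60.8 and 74.0 in S100A4-/- and 11.5 and 7.66 in WT (log2 fold change 2.71, SE 0.40, adjusted p = 4.58e-06). Rhoj, a small GTPase of endothelial cells, had 304.0 and 268.6 against 77.3 and 76.6 (log2 fold change 1.88, SE 0.17, adjusted p = 3.78e-11). In both genes the 2 genotypes were well apart.

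Ramp2, the partner of the adrenomedullin receptor, rose by a log2 fold change of 2.41 (SE 0.56, adjusted p = 0.00318) and the adhesion receptor Adgrf5 by 1.72 (SE 0.40, adjusted p = 0.00358). Thbd, the thrombin receptor thrombomodulin, was the fifth gene (log2 fold change 1.65, SE 0.36, adjusted p = 0.00175), and it is named here after its values were seen. Podxl, Mfsd2a and S1pr1, the most abundant of the list besides Rhoj, had normalized values of 1681 and 1719 against 1648 and 1641, of 707 and 702 against 666 and 667, and of 533 and 499 against 531 and 519. These abundant genes did not pass the threshold. The calls for several of the others needed both mutant libraries. Without S100A4-/- replicate 1 the adjusted p was 0.203 for Ramp2, 0.148 for Adgrf5 and 0.1001 for Thbd, and without S100A4-/- replicate 2 it was 0.165, 0.189 and 0.234, and 0.0539 for Clec14a, while Rhoj passed in every such fit. Robo4 and Plvap, a guidance receptor and the diaphragm protein of fenestrated capillaries, stayed below a value of 10 in every library and are also named after their values were seen. Erg, Fli1, Tal1, Sox7, Sox17, Sox18, Lyl1, Emcn, Icam2, Ecscr, Procr, Gpihbp1, Esm1, Dll4, Aplnr and Ly6c1 were not analysed here.

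Of 17 ligands, partners and other genes of the VEGF and Tie pathway that were found and tested, 2 rose and 0 fell, where 3.65% of all genes tested rose (median log2 fold change 0.06). Nrp2, a co-receptor of VEGF and semaphorins, had values of 83.9 and 57.8 in S100A4-/- and 24.0 and 26.3 in WT (log2 fold change 1.44, SE 0.32, adjusted p = 0.00175). Epas1, the hypoxia-inducible factor HIF-2 alpha that is strong in endothelium, had 245 and 267 against 98.2 and 122 (log2 fold change 1.22, SE 0.16, adjusted p = 4.49e-07). Neither Nrp2 nor Epas1 passed in limma without the trend, an alternative given below. Both mutant libraries were above both WT libraries for these genes, and Nrp2 lost its call without either of them (adjusted p = 0.244 without S100A4-/- replicate 1 and 0.0664 without replicate 2). Hif1a, the most abundant of the list, had 8949 and 8997 in S100A4-/- against 9874 and 10018 in WT, a difference under 2-fold. Vegfa, the ligand of Flt1 and Kdr, was looked at after its values were seen: it had 1148 and 1097 in S100A4-/- and 921 and 922 in WT, with both mutant libraries higher but a log2 fold change of 0.28 (SE 0.07, adjusted p = 0.00973), short of 2-fold. Vegfb, a ligand of Flt1, had 1794 and 1900 against 1799 and 1796. Figf, Flt4, Angpt1 and Angptl1 were not analysed here.

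Of 15 genes whose products restrain vessel growth, 2 rose and 0 fell, where 3.65% of all genes tested rose and 0.0744% fell, and Tnmd was not analysed here. Col18a1, whose collagen XVIII is cut to release endostatin, had values of 4462 and 4337 in S100A4-/- and 834 and 934 in WT (log2 fold change 2.32, SE 0.06, adjusted p = 1.05e-26). Sema3e, which repels endothelial cells through plexin D1, had 102 and 76.0 against 31.3 and 21.9 (log2 fold change 1.71, SE 0.30, adjusted p = 7.29e-05). The median log2 fold change of this list was 0.21. Its most abundant genes, Sparc (0.02), Col4a3 (-0.06) and Timp3 (0.21), did not pass the threshold. Among 15 partners of the junction molecules, Ocln (occludin, log2 fold change 2.41, SE 0.52, adjusted p = 0.00139) and Cgn (cingulin, log2 fold change 1.06, SE 0.14, adjusted p = 5.65e-07) rose and the other 13 did not pass, against the same shares over all genes. Ctnnb1, the catenin that binds cadherins such as Cdh5 and by far the most abundant partner, had 24339 and 24938 in S100A4-/- against 24917 and 24514 in WT. The median over the junction partners was -0.005. Ocln reached the filter value in the S100A4-/- libraries alone, and it did not pass without S100A4-/- replicate 1 (adjusted p = 0.169) or replicate 2 (0.121), Sema3e did not pass without replicate 1 (0.143), and Cgn fell just short of 2-fold without S100A4-/- replicate 2 (log2 fold change 0.99) and without WT replicate 1 (0.94).

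Some markers of other cells that lie on or near the vessels also rose, while most genes of each of these lists did not pass. Of 12 genes of pericytes and smooth muscle, the mural cells that wrap vessels, or of their recruitment, 5 rose and 0 fell (median log2 fold change 0.93), where 3.65% of all genes tested and 7.5% of those with a mean value under 50 rose. These were Pdgfb (2.57), a growth factor that endothelial cells make and that recruits mural cells, and so not itself a mural marker, Myh11 (2.06), Cspg4 (1.84), Vtn (1.84) and Notch3 (1.05), with adjusted p values of 0.0297, 0.00529, 0.0287, 3.82e-12 and 6.43e-06. Without S100A4-/- replicate 1 the adjusted p was 0.270 for Pdgfb, 0.137 for Myh11 and 0.275 for Cspg4, and without replicate 2 it was 0.161, 0.201 and 0.312. Cspg4 also missed without WT replicate 2 (0.204), and Notch3 without S100A4-/- replicate 2 (0.0632) or, at a log2 fold change of 0.98, without WT replicate 2. Vtn passed in every such fit. Of the 12 mural genes 3 reached the filter value in the S100A4-/- libraries alone, Pdgfb and Myh11 among them, so the count and the median of this list lean on genes that were tested because they were higher there. Acta2, the most abundant of the mural list, had 16610 and 18375 in S100A4-/- and 16656 and 17114 in WT. Pdgfrb, a receptor of pericytes, had 2268 and 2294 against 2307 and 2347. Both stood far above Myh11, at 8.35 and 6.57 in WT, and Cspg4, at 11.5 and 4.38 in WT. Which cells the Acta2 and Pdgfrb reads came from was not tested, so their level is no measure of mural cells. The summed values of the mural list were 20075 and 21806 in S100A4-/- and 19599 and 20016 in WT, and without Acta2 they were 3465 and 3432 against 2942 and 2901.

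Of 11 macrophage genes 4 rose and 0 fell (median log2 fold change 1.30), where 3.65% of all genes tested and 7.5% of those with a mean value under 50 rose. Another 4 of the 11, none of which passed the threshold, reached the filter value in the S100A4-/- libraries alone and so enter the median because they were higher there. The summed values of the macrophage list were 474 and 407 in S100A4-/- and 219 and 217 in WT. Cd163, the most abundant, had 107 and 85.1 against 90.8 and 98.5. C1qb (log2 fold change 2.63, SE 0.56, adjusted p = 0.00112) and Csf1r (1.22, SE 0.28, adjusted p = 0.00297), the latter a receptor needed by macrophages, were among the 4 that rose. Neither kept its call with a mutant library left out (adjusted p = 0.230 and 0.322 for C1qb and 0.257 and 0.0862 for Csf1r, without S100A4-/- replicate 1 and 2). Against the same shares over all genes, of 6 red cell and platelet genes only the beta-globin Hbb-bs rose (log2 fold change 1.11, SE 0.22, adjusted p = 0.000404), and near-identical globin genes may share its reads. Its adjusted p was 0.184 and 0.230 without S100A4-/- replicate 1 and 2, and its log2 fold change 0.66 without WT replicate 2. The red cell and platelet list summed to 379 and 315 in S100A4-/- and 227 and 178 in WT. Of the red cell and platelet genes 1 reached the filter value in the S100A4-/- libraries alone, and so did 1 lymphatic gene, Lyve1. Among 3 lymphatic genes Reln rose (log2 fold change 2.15, SE 0.10, adjusted p = 2.03e-19), a gene that neurons also express, while Lyve1 had 14.6 and 5.07 in S100A4-/- and 0 and 4.38 in WT, where 0 reads allow a value of up to 3.13. The lymphatic sums were 4337 and 4403 against 2426 and 2802. Pdpn, the most abundant lymphatic gene by its mean over the 4 libraries, had 1869 and 2002 in S100A4-/- against 1982 and 2124 in WT. Reln had 2454 and 2396 in S100A4-/- against 444 and 673 in WT, but it did not pass in limma without the trend, an alternative given below.

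Many genes of the neighbouring eye tissues rose, against 3.65% of all genes tested. All 9 rod photoreceptor genes rose (median log2 fold change 2.05). The study had already listed all 9 as upregulated in these same libraries, so this count restates its calls and is no separate result. The rod values summed to 8438 and 8070 in S100A4-/- and 2049 and 2114 in WT. Gnat1, the rod transducin, was the most abundant (3339 and 3327 against 736 and 782). Of 7 genes of Müller glia and astrocytes 4 rose (median 1.40), among them Glul, the glutamine synthetase of Müller cells (5387 and 5421 against 1779 and 1923). That list summed to 94781 and 96292 in S100A4-/- and 83217 and 84249 in WT, most of it from Dkk3. Of 6 pigment cell genes 5 rose (median 2.49), with sums of 1672 and 1737 against 682 and 754. The melanosome gene Mlana, 1 of these 5, reached the filter value in the S100A4-/- libraries alone, with 1.04 and 2.19 in WT. Dct, a melanin synthesis enzyme, had 581.5 and 581.7 in S100A4-/- and 31.3 and 44.9 in WT. Oca2, the most abundant pigment gene by its mean over the 4 libraries, had 495 and 507 against 507 and 494. No gene of the rod, glial and pigment lists that was found had 0 reads in any library. Of the lists of other cells, the mural genes Kcnj8 and Des, the macrophage genes Aif1 and Ptprc, the lymphatic genes Ccl21a and Mmrn1, the glial gene Pax2, the pigment gene Slc45a2 and 8 red cell and platelet genes were not analysed here.

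**Figure D4:**
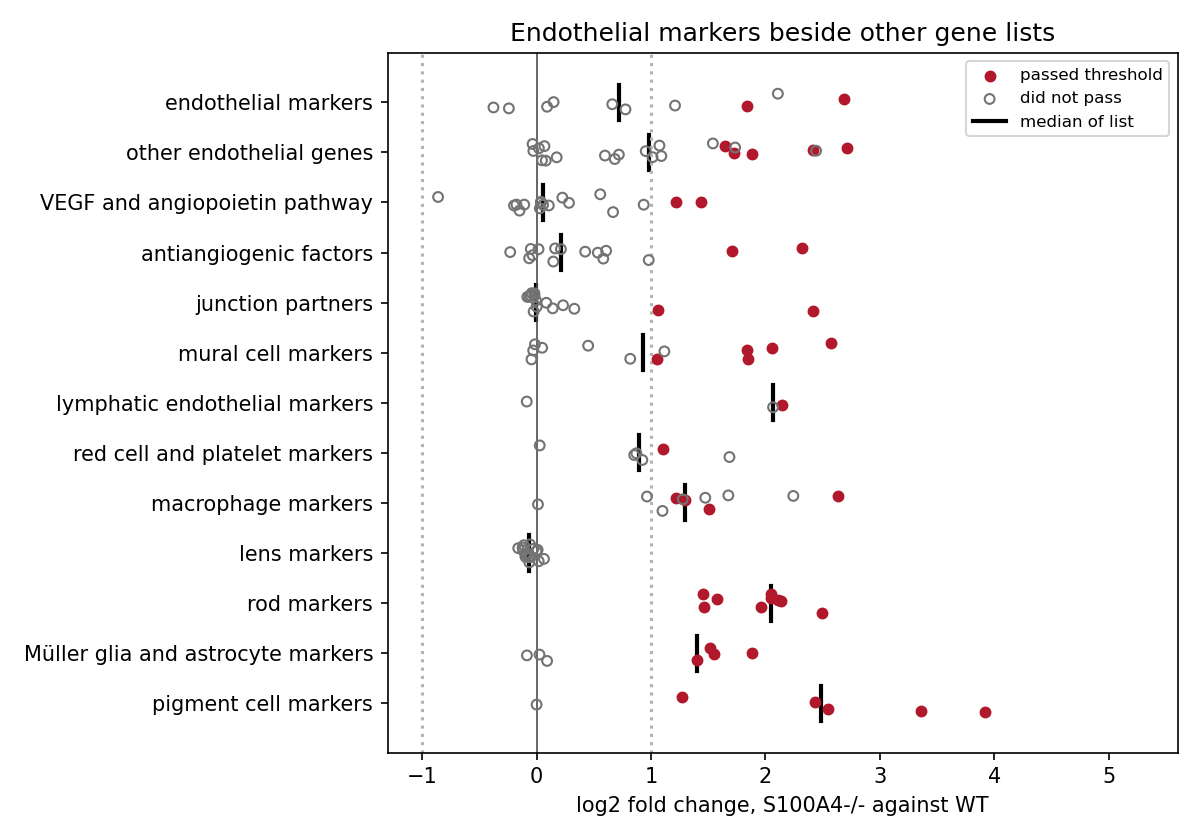
Log2 fold change of each tested gene in the endothelial markers and 12 other lists, red where the threshold was passed, with a black bar at the median of each list. Dotted lines mark a 2-fold change. The endothelial markers spread from -0.38 to 2.68, the rod markers from 1.46 to 2.50, and the lens markers stay between -0.16 and 0.07.

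The rod markers, all listed by the study as upregulated in these libraries, ran from 1.46 to 2.50 on the log2 scale. They serve only as a scale of known risers. Set beside them, 4 of the 10 endothelial markers, Pecam1, Tek, Vwf and Egfl7, had a 95% interval that ended below the lowest rod marker, and 6, with Cdh5 and Cldn5 added, had an interval that ended below the rod median of 2.05. The rod values have errors of their own, and the difference between the lists was not tested. The part that RNA of rod, glial, pigment, mural, macrophage or blood cells had in the values of Flt1 and Kdr was not tested.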

How the data were processed

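Stranded, single-end mRNA libraries of pooled P30 lenses had been made for 2 S100A4-/- and 2 WT samples. The labels gave each sample's group and replicate number. The authors trimmed reads with Trim Galore, aligned them with STAR to GRCm38 (mm10 in the submitters' processing notes), used HTSeq to count uniquely placed reads on genes, dropped genes short of 10 reads in all libraries and scaled the counts with DESeq2. Tool versions are not given in the sources used here. The deposited signal values are these scaled counts. All values (100%) came out as whole reads in every library (tolerance 0.01), from which size factors, totals and reads were recovered. The recovered counts behind the deposited values served the count tests. The table had 0 columns without a sample.

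Of 14924 genes, 14782 matched GENCODE M21 (GRCm38) by identifier, from which symbols, positions and exon lengths were taken. That annotation is a later release than the one counted on. S100A4-/- was compared with WT with limma 3.58.1 (trend, R 4.3.3) on log2(value + 1), over the 14780 genes that reached a value of 10 somewhere, with Benjamini-Hochberg adjustment over all of them. Adding 1 shrinks differences between low values, and a fold change of mean log values can differ in either direction from a ratio of means. The threshold, a 2-fold change with an adjusted p of at most 0.05, is that of the study. Alternatives were other pseudocounts (0.5, 5), filters (none, mean of at least 50) and normalizations (TMM, equal totals, quantile), no trend, a replicate block, no fold threshold, edgeR 4.0.16 and DESeq2 1.42.0 on recovered reads, and each library left out. On simulated counts for 14388 genes with 200 changed, limma called 200, of which 197 were changed. The changed genes all had a mean of at least 50 and changes well beyond 2-fold. The simulation therefore does not show how often a change near 2-fold, or one in a gene of lower mean, is missed. A gene with 0 reads could have had up to 3, and this floor covers counting error only. Whether replicates came from separate animals is not stated beyond the word biological, so p-values measure the spread between these pools. Same-group replicates differed by more than sampling noise (median chi-square per gene 2.02 in S100A4-/- and 1.10 in WT).

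The members and lists were chosen with earlier results of these data known. The text names all 10 members, S100a4, and in each other list up to 4 genes of the largest mean, up to 4 of the largest rises or falls past the threshold, and genes not found (for red cells and platelets only their number) or at 0 in a library. Names outside this rule are marked. No genes were sought for a likeness in pattern, since 4 libraries are too few. Microscopy and other assays of the study were not used here.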

Additional observations from a re-analysis of the deposited data

How the results depend on the processing

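In the 12 alternatives that kept all 4 libraries, Flt1 passed in each and Kdr in each that tested it. A mean value of at least 50 left 3 of the 10 markers and so called 1 (Flt1). Under that filter 281 genes rose and 6 fell, and the lists had 1 riser among the other endothelial genes, 1 in the VEGF pathway, 1 junction partner, 2 mural, 1 macrophage and 3 pigment genes. Quantile normalization called 23 genes lower and left 1 junction partner, 2 mural, 0 red cell and 1 macrophage gene, and it turned Pecam1 to -0.11. Without the trend limma called 174 genes higher and 7 lower, with 2 risers among the other endothelial genes, 0 in the VEGF pathway, 1 antiangiogenic, 0 junction, 1 mural, 0 lymphatic, 0 red cell, 0 macrophage, 2 glial and 3 pigment genes. DESeq2 called 6 genes lower, with 3 mural risers and 1 macrophage riser. With no fold threshold 831 genes rose and 197 fell, including 4 and 1 in the VEGF pathway and 5 and 1 antiangiogenic genes. Apart from settings that change the genes tested or the fold asked for, the causes were not tested.

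Leaving out each library in turn, with the lone sample of a group assumed to vary like the other group, gave 168 to 546 genes higher and 4 to 13 lower. It gave 1 to 3 endothelial markers higher, 1 without S100A4-/- replicate 1 and 3 with Tie1 without WT replicate 1. The lists ranged over 1 to 6 other endothelial genes, 1 to 3 VEGF pathway genes, 1 to 2 antiangiogenic, 0 to 2 junction, 1 to 5 mural, 0 to 1 red cell, 0 to 4 macrophage and 2 to 5 pigment genes. The log2 fold change of Pecam1 ranged from -0.022 to 0.32 and that of Egfl7 from -0.049 to 0.23, both lowest without WT replicate 1. The median of the 10 markers ranged from 0.19 to 1.01 on the log2 scale.

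Same-numbered replicates did not deviate together (correlation 0.012 over all genes tested and 0.056 over those with a mean value of at least 50). The labels do not say that the numbers pair the samples. A low correlation cannot exclude a pairing, so whether the samples were paired was left undecided. With a replicate block 3 endothelial markers passed, Tie1 among them (log2 fold change 2.11, adjusted p = 0.0239).

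Some markers had few reads, and the part that depth had in their calls was not tested. WT replicate 2 held 1 read of Tie1, and Kdr and Esam rested on 9 reads or fewer in each WT library.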
